A study of Drosophila melanogaster with 4 samples.

Results

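Rhino (Rhi) occupancy in control ovaries was described from an immunoprecipitated (IP) library and its input, as the log2 of IP over input in each 1 kb bin of the Rhi-dependent piRNA source loci. A bin was taken where both values were above 0, which held for all 2364 bins of the deposited tables, of 2364 in the whole series. The 1066 peaks called on the same IP library were read beside the bins. These were 2 of the 4 libraries of a Rhi chromatin immunoprecipitation (ChIP-seq) study of whole ovaries from Drosophila melanogaster. The GFP_KD females carried 3 Gal4 drivers, a GAL4::VP16 transgene under otu, GAL4-nos.NGT and GAL4::VP16-nos.UTR, together called MTD-Gal4, and the hairpin transgene VALIUM20-EGFP.shRNA.1 at attP2. Their otu and nos promoters act in the germline, so the hairpin against EGFP is a control for germline knockdown and the ovaries are not wild type. The enok_KD females carried the same 3 drivers with TRiP.HMS02634 at attP2 instead, and their input served as a second input, while their IP entered only the recovery of whole reads. Adults aged 2 to 3 days, with 29 °C as the listed temperature, were used for both genotypes. Each library came from pooled ovaries, in which somatic follicle cells lie beside the germline, so a weak signal in all germline cells and a strong signal in few cells cannot be told apart. The series title and the antibody protocol name Rhino, although the design text of the series names RNA polymerase II.

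Rhi is the germline-specific member of the heterochromatin protein HP1 family whose chromodomain binds histone H3 methylated at lysine 9. With its partners Deadlock and Cutoff it marks dual-strand piRNA clusters, heterochromatic regions full of transposon fragments, and allows both of their strands to be transcribed into piRNA precursors without ordinary promoters. The resulting piRNAs guide Piwi proteins to silence transposons in the germline. The cluster 42AB is the best known of these regions, whereas flamenco is a uni-strand cluster that serves the somatic follicle cells and does not need Rhi.

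Each value below comes from a single library, so no difference has a replicate check. Intervals describe either counting error or how bins vary, and never how ovaries vary. Those over bins treat the bins as independent, although neighbouring bins are correlated, so they are probably too narrow. The deposited values are RPM, read counts scaled to the library's uniquely mapped reads and divided by the mappability index of the bin. Their steps gave 8024682 uniquely mapped reads for the IP and 7742110 for the input. Per bin, the median was 78 IP reads and 41 input reads. Counting alone gave the log2 ratio a standard error (counting SE) of 0.28 in the median bin.

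Rhi was above input over most of the tabulated loci, and strongly so over a minority of them. The median bin had a log2 IP over input of 0.96 (95% interval over bins 0.93 to 1.02), with 12.4 RPM as the median IP value and 6.69 RPM as the median input value. The quartiles were 0.42 and 1.70, and the values ran from -1.37 to 5.82. Bins at or above a log2 of 1 numbered 1156 (48.9%), and those at or above 2 numbered 444 (18.8%). The ratio was above 0 beyond its 95% counting error in 1608 bins (68%) and below 0 beyond it in 42 bins (1.78%). The same ratio between the enok_KD input and the GFP_KD input, which holds no IP, had a median of -0.03 with quartiles of -0.30 and 0.25. It reached 1 in 70 of 2363 bins (2.96%). The middle 50% of bins thus spanned 1.27 for IP over input, against 0.55 for input over input. The ratio of inputs shows the spread between libraries and not the unspecific background of an IP. No bins outside Rhi-dependent loci were tabulated, so ratios above 0 are not set against other chromatin. Together the bins held at most 12.0% of the IP reads, against at most 4.34% of the input reads.

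**Figure D1:**
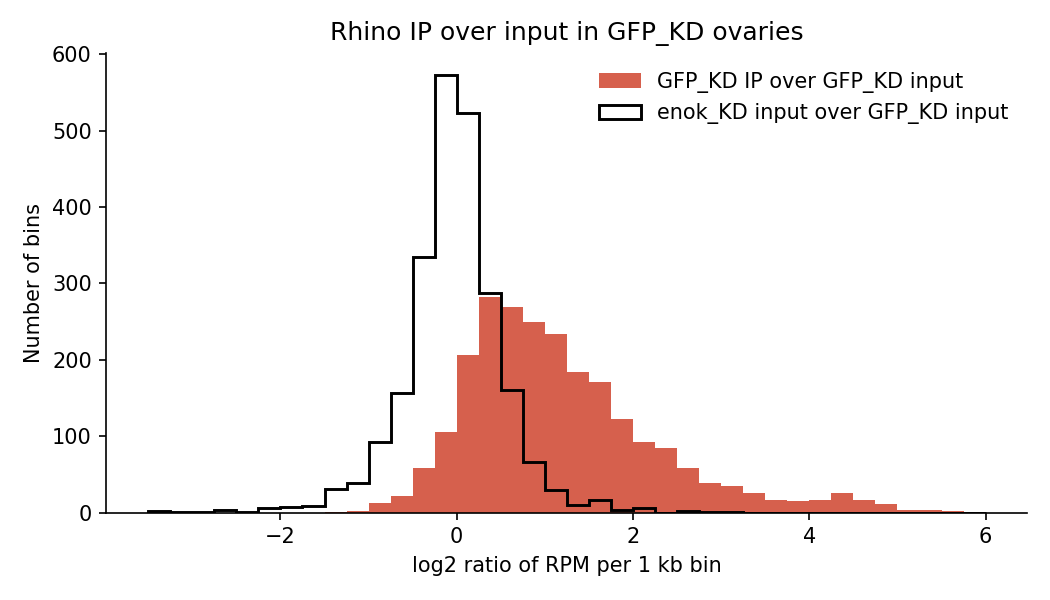
Number of 1 kb bins (vertical axis) by log2 ratio (horizontal axis, steps of 0.25) for GFP_KD IP over GFP_KD input (filled) and enok_KD input over GFP_KD input (outline). The IP distribution has its median at 0.96 and a tail up to 5.82, whereas the input ratio is centred on -0.03.

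The level of Rhi differed widely between clusters. Of the 88 clusters, 86 had a median above 0, 35 had a median of at least 1 and 7 had a median of at least 2. Among the 70 clusters with at least 10 bins, 44 lay between 0.5 and 1.5, and only 4 reached 2. The cluster to which a bin belonged accounted for 50.9% of the variance between bins, or 34.0% when 42AB was left out. Adjacent bins, which share their library and their cluster, had a correlation of 0.68 over 1901 pairs, or 0.31 after the mean of each cluster was subtracted. Neighbouring bins still differed by a median of 0.49.

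42AB (cluster 1, chr2R:2144349-2386719 in dm3) had the highest median, 3.80 over 130 bins (95% interval 3.49 to 4.13). The next was cluster 5 (chr2L:20148259-20227000), at 3.11 over 35 bins, with a median of 46.6 RPM in the IP and 6.65 RPM in the input. In cluster 5, 34 of 35 bins were at or above 1, and the highest, chr2L:20149001-20150000, had 191 RPM in the IP and 7.63 RPM in the input. The exception was its last bin, with 12.2 RPM in the IP and 11.8 RPM in the input.

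Cluster 59 (chr3RHet:11338-41000), in the heterochromatin that dm3 keeps apart from the arm, had a median of 2.84 over 30 bins, all of them at or above 1. Its coverage was thin, at a median of 42 IP reads and 6.5 input reads per bin. Its summed values gave a log2 IP over input of 2.86 ± 0.08 (counting SE). Only 3 peaks, over 1.57 kb of its 29.7 kb span, were listed there. A high ratio and a low number of peaks thus stood together in a cluster with few reads in most bins. Its deepest bin, chr3RHet:40001-41000, held 990 of the 2784 IP reads and 117 of the 361 input reads. That bin had a ratio of 3.03 ± 0.14 and no listed peak, so depth was not the only difference.

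Cluster 27 (chr2L:20104660-20118503), next to cluster 5 on 2L, was the most even of the high clusters. Its 15 bins ran from 1.47 to 2.61 around a median of 2.23. Of these bins, 14 lay over a peak, and peaks covered 60.6% of its span.

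Cluster 9 (chrX:21766001-21844063) had a median of 1.81 over 35 bins. It also held the bin with the highest input of all, chrX:21835001-21836000, with 3220 RPM in the IP and 5376 RPM in the input, a log2 ratio of -0.74. Because of that bin the summed values of the cluster gave only 0.55, against 2.11 without it. The median over bins did not rest on it.

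At the other end, 5 clusters with at least 10 bins had medians close to input: cluster 62 on 2L at 0.06, cluster 86 on 3L at 0.22, cluster 100 on 3LHet at 0.27, cluster 73 on 2R at 0.31 and cluster 32 on 3L at 0.34. In cluster 62 the median bin had 24.5 RPM in the IP and 19.1 RPM in the input, and 5 of its 10 bins were below 0. The clusters with a negative median were both short, cluster 71 on 2R with -0.11 over 5 bins and cluster 133 on 2RHet with -0.18 over 7 bins. All the named low clusters are classed as Enok-unbound, as are 66 of all 88 clusters and 53 of the 70 with at least 10 bins. The next cluster up among those 70, cluster 131 on 3LHet at 0.36, is Enok-bound.

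The largest clusters after 42AB lay at intermediate levels. Behind 42AB, the largest Enok-bound clusters were cluster 20 on 3LHet, with a median of 0.95 over 86 bins, and cluster 15 on 3LHet, with 1.49 over 70 bins. The largest Enok-unbound cluster, cluster 13 on 3LHet, had a median of 1.38 over 105 bins. Clusters 30, 36 and 28 had 58 bins each and medians of 0.81, 0.71 and 0.44. The cluster that the study's list names flam (cluster 8) is represented by a single bin, chrX:21586001-21587000, with 498 RPM in the IP and 232 RPM in the input, a log2 ratio of 1.10 ± 0.04 (counting SE).

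**Figure D2:**
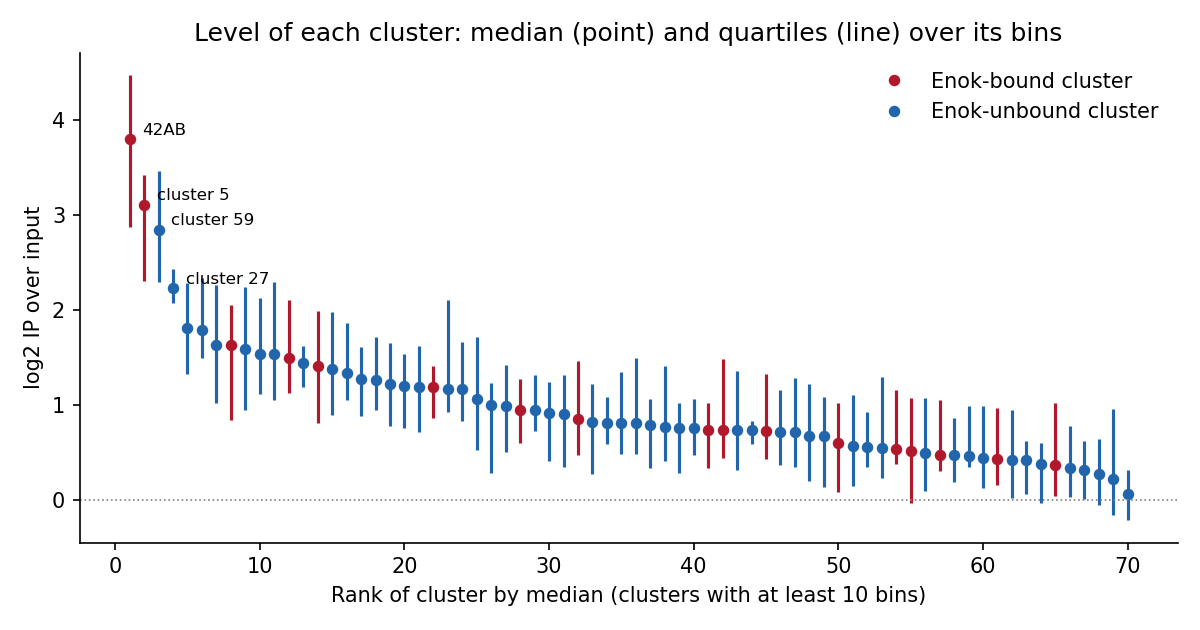
Median log2 IP over input (points) and quartiles over bins (lines) of the 70 clusters with at least 10 bins, ranked by median, coloured by class. 42AB stands at 3.80 and cluster 5 at 3.11, and the lowest cluster is at 0.06.

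Within 42AB, Rhi was above input in all 130 bins beyond counting error, and 129 of them were at or above 1. This single cluster held 5.50% of the bins but 33.9% of their summed IP RPM, against 6.97% of their summed input RPM. Its bins took at most 4.02% of all uniquely mapped IP reads, against at most 0.303% of the input reads. Of the 444 bins at or above a log2 of 2 in the whole table, 117 lay in 42AB, and of the 78 at or above 4, 58 did.

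The ratios in 42AB formed 2 high stretches with few tabulated bins between them. Counted in 25 kb windows from the first bin, the medians were 3.71, 4.19 and 4.47 in the first 75 kb, over 20, 21 and 19 bins. The next window had 6 bins and a median of 3.84. From 100 to 125 kb no bin was tabulated, and the 3 bins from 125 to 150 kb had values of 1.58 to 2.48. Those 3 bins had medians of 289 RPM in the IP and 53.4 RPM in the input, against cluster medians of 262 and 15.5 RPM. Their low ratio goes with high input and not with low IP values. Peaks were listed in both windows, 7 over 9.64% of the first and 22 over 35.3% of the second. The medians were 3.40 from 150 to 175 kb and 4.43 from 175 to 200 kb. They were lower in the last 2 windows, at 3.05 over 20 bins and 1.97 over 11 bins. The very first bin, chr2R:2144349-2145000, had 25.6 RPM in the IP and 12.7 RPM in the input, and the very last, chr2R:2386001-2386719, had 49.0 RPM in the IP and 39.2 RPM in the input. Both outermost bins were thus far below the cluster median.

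Among bins of all clusters with at least 2 RPM of input, 4 of the 5 highest ratios came from these stretches. The bin chr2R:2213001-2214000 had 294 RPM in the IP and 5.20 RPM in the input (1929 and 33 reads), a log2 ratio of 5.82 ± 0.25 (counting SE). The bin chr2R:2208001-2209000 had 940 RPM in the IP and 18.7 RPM in the input, a ratio of 5.65 ± 0.14. The bins starting at 2211001 and 2312001 on 2R had 5.52 and 5.27. Counting intervals of these 4 bins overlap, so their order is not resolved. The most reads fell elsewhere, in chr2R:2166001-2167000, with 3002 RPM in the IP and 133 RPM in the input (22260 and 952 reads).

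Levels also dipped inside the first stretch. In the 5 adjacent bins from chr2R:2186001 on, the ratio was 2.22 to 2.66, although each had 363 to 810 RPM in the IP. Their input was 60.0 to 174 RPM, against a cluster median of 15.5 RPM. The low ratio there goes with high input and not with low IP values.

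**Figure D3:**
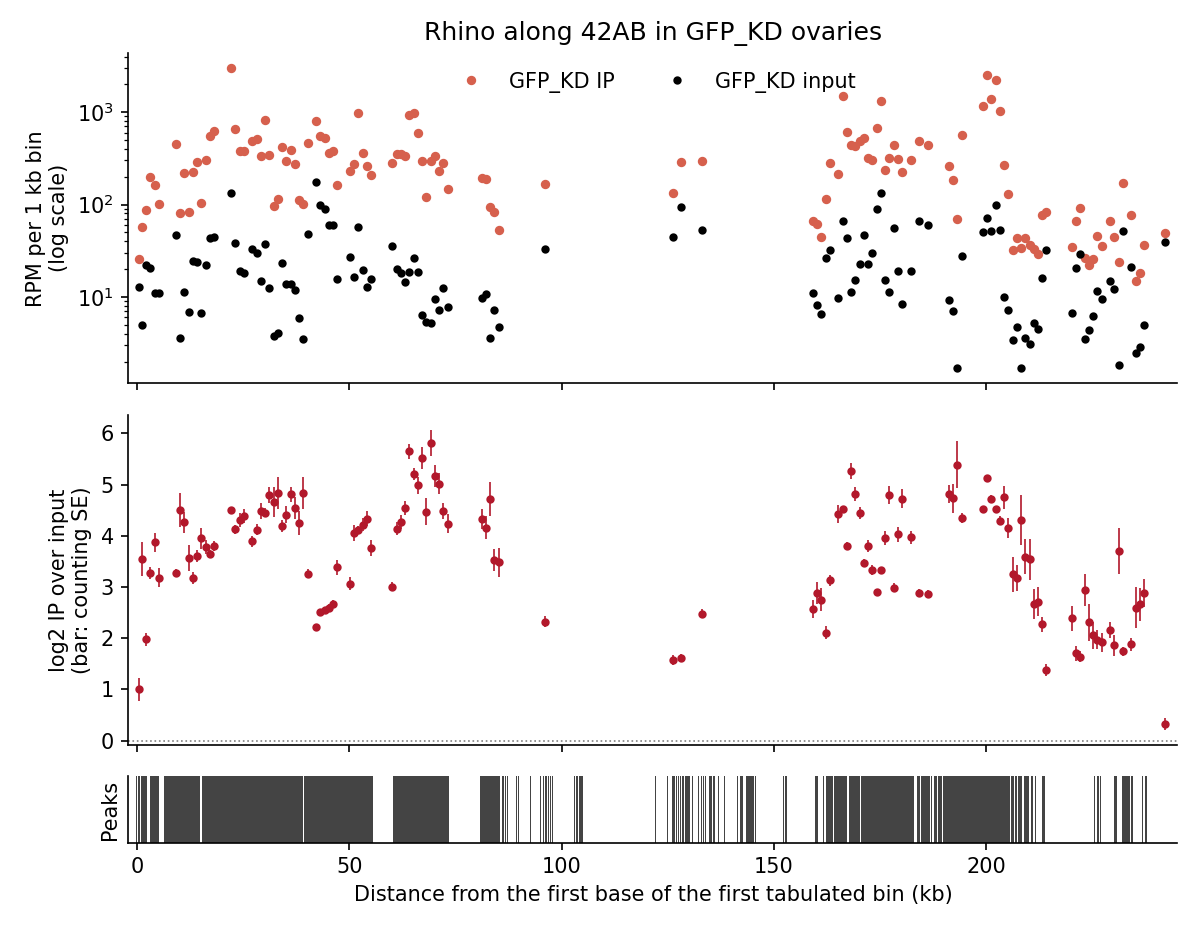
IP and input RPM per 1 kb bin on a log scale (top), log2 IP over input with counting SE (middle) and the listed peaks (bottom) along 42AB, by distance from the first tabulated base in kb. The IP lies above the input in all 130 bins, and the bins from 125 to 150 kb have ratios of 1.58 to 2.48.

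The deposited tables class 22 clusters (773 bins) as Enok-bound and 66 clusters (1591 bins) as Enok-unbound. The rule behind the class is not given in the sources used here, so the names are used as labels only. Enok-bound bins had a median of 1.22 (95% interval over bins 1.10 to 1.32) and Enok-unbound bins a median of 0.89 (0.82 to 0.95). A log2 of at least 1 was reached by 57.8% of Enok-bound bins and by 44.6% of Enok-unbound bins. The ratio was above 0 beyond counting error in 75.2% of Enok-bound bins and in 64.6% of Enok-unbound bins.

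Much of this gap rested on 42AB. Without it the Enok-bound median was 0.97 (0.90 to 1.05), and 49.5% of those bins reached 1. On the assembled arms without 42AB, the medians were 0.99 over 184 Enok-bound bins and 0.63 over 552 Enok-unbound bins. Cluster 5 was then also left out, which was chosen after its value was seen. The Enok-bound median on the arms was then 0.73 (0.57 to 0.91), and this interval overlaps that of the Enok-unbound bins (0.54 to 0.73). Both intervals treat correlated bins as independent, so their overlap is only a description. In the Het sequences, the medians were 0.95 over 459 Enok-bound bins (0.89 to 1.04) and 1.00 over 1039 Enok-unbound bins (0.95 to 1.06). The gap on the arms was thus smaller without 42AB and cluster 5. These are the Enok-bound clusters with the highest medians, so leaving them out could only lower that class. High Enok-unbound clusters on the arms, such as cluster 27 at 2.23, stayed in. Peaks still lay over 16.8% of the remaining Enok-bound bins on the arms, against 10.3% of the Enok-unbound bins. Single sequences differed, with medians of 0.60 over Enok-bound bins and 0.59 over Enok-unbound bins on 3L, and 1.63 over the 23 Enok-bound bins (1 cluster) and 1.09 over the 466 Enok-unbound bins on 3RHet. With each cluster counted a single time, the medians were 1.02 over Enok-bound clusters and 0.78 over Enok-unbound clusters.

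By chromosome (dm3), the medians without 42AB and cluster 5 ran from 0.42 to 1.41. The 75 bins on X had a median of 1.41, the 20 bins on 3R 1.24 and the 489 bins on 3RHet 1.15. The 643 bins on 3LHet had 1.07, the 63 bins on 4 had 0.95, the 69 bins on 2LHet 0.80, the 17 bins on XHet 0.79 and the 280 bins on 2RHet 0.72. Lower medians were found for the 247 bins on 3L (0.59), the 137 bins on 2L outside cluster 5 (0.56) and the 159 bins on 2R outside 42AB (0.42). 2R therefore held both the highest cluster and the lowest median of the remaining bins.

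Bins within 3 kb of a cluster end tended to be lower, whereas the outer 20% of the span showed little difference. An end here is that of the first or last tabulated bin, which need not be the end of the annotated cluster. In the 70 clusters with at least 10 bins, the median of the inner bins minus that of the outer bins (20% of the span on each side) had a median of 0.03 (95% interval -0.06 to 0.16), and the inner bins were higher in 42 clusters. When the outer bins were those within 3 kb of either end, the difference was 0.18 (95% interval 0.05 to 0.36). The inner bins were then higher in 48 of the 70 clusters. The bins at the very ends had a median of 0.71, against 0.74 for those up to 1 kb further in, 0.89 up to 2 kb and 1.05 for those 5 to 10 kb from the nearer end. Relative to the median of their own cluster, the end bins were lower by a median of 0.16 (-0.16). The values were -0.11 up to 1 kb further in and -0.10 up to 2 kb. Single clusters went either way. The inner minus outer difference was 1.44 in cluster 89 (4 inner and 7 outer bins) and -0.74 in cluster 69, both on 3RHet. The 3 kb definition gave 0.25 and 0.58 instead. The bins more than 50 kb from an end had a median of 1.77, but 1.01 without 42AB.

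Some of the smallest clusters had some of the highest medians, and these lie at the ends of chromosome arms. Cluster 11 (chr3R:27895169-27899000) had 4 bins at 2.42, 2.72, 2.90 and 3.51. Cluster 33 (chr2L:5001-8000) had 3 bins, with 37.9 RPM in the IP and 5.51 RPM in the input for the outermost, and ratios of 2.78, 2.89 and 0.98 inwards. Cluster 22 (chrX:19001-27378) had a median of 2.30 over 7 bins, with the last bin at 0.45. Cluster 97 (chr2R:21139959-21146000) was lower, at 1.29 over 7 bins. The ends of fly chromosomes carry telomeric retrotransposons and, next to them, tandem repeats.

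Stretches of regularly spaced peaks, picked for their spacing after it was seen, lay at these ends on 2L and 3R. From 255 to 5435 on 2L, 11 peaks followed each other, and their summits lay 446 to 476 bp apart, with a mean of 458 ± 7.79 bp (SD over 10 gaps). Their fold enrichment, the authors' own value for each peak, was 5.25 to 9.50. At the end of 3R, 6 peaks had summits 957 to 999 bp apart, with a mean of 979 ± 17.2 bp (SD over 5 gaps), and a fold enrichment of 4.79 to 6.36. These stretches run past clusters 33 and 11, and 1 peak of each lay in the tabulated cluster. Within 50 kb of the arm end the spacing was less even, at 446 to 806 bp over all 13 peaks on 2L (SD 134 bp) and 517 to 1983 bp over all 10 peaks on 3R (SD 393 bp), where the other 3 peaks of cluster 11 lay in the uneven part. From 16 to 22853 on X there were 12 peaks with uneven spacing of 138 to 4068 bp, of which the strongest (chrX:20849-22853, fold enrichment 9.11) lay in cluster 22. On the ends of 2R and 3L only 1 peak each was listed within 50 kb.

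**Figure D4:**
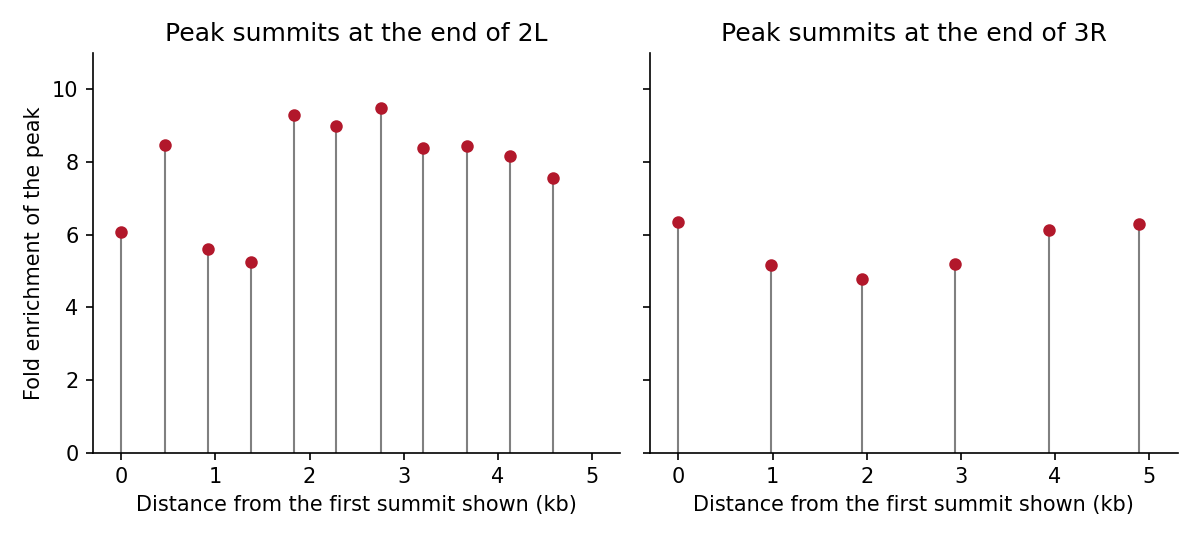
Fold enrichment (vertical axis) of each listed peak against the distance of its summit from the first summit shown (horizontal axis, kb), at the end of 2L (left, outermost peak first) and of 3R (right, outermost peak last). The 11 summits on 2L are 446 to 476 bp apart and the 6 on 3R are 957 to 999 bp apart.

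On chromosome 4, 35 of 69 peaks lay distal to the tabulated loci. Cluster 3 (chr4:1270001-1279000) had 8 bins with a median of 1.37, and its bin chr4:1271001-1272000 reached 5.33 ± 0.17, with 576 RPM in the IP and 14.4 RPM in the input. Between positions 1280816 and 1351774, these 35 peaks covered 70.2% of the 71.0 kb, with a median fold enrichment of 2.40. None of these 35 lay in a tabulated cluster, whose span was taken from its first to its last tabulated bin. Whether the annotated cluster 3 reaches further was not checked.

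The peak list and the bins went together at the lowest and the highest levels, and less so in between. In all, 371 bins overlapped a peak by at least 1 bp (15.7%). Their median log2 IP over input was 2.36 with quartiles of 1.61 and 3.47, against 0.80 with quartiles of 0.34 and 1.41 in the 1993 bins without a peak. None of the 690 bins under 0.5 lay over a peak, and the share was 3.86% from 0.5 to 1, 13.4% from 1 to 1.5, 29.9% from 2 to 2.5, 64.1% from 3 to 4 and 84.6% from 4 upwards. Both readouts come from the same IP reads. Among the 371 bins, the ratio and the fold enrichment of the highest peak had a Spearman correlation of 0.70.

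The strong bins with a peak had both more reads and higher ratios than those without. Of the 444 bins at or above 2, 225 lay over a peak, with a median of 1210 IP reads and 98 input reads and a median ratio of 3.17. The other 219 had a median of 46 IP reads and 8 input reads and a median ratio of 2.41. Among the 251 bins at or above 2 with at least 20 reads in both libraries, a limit chosen after seeing the data, 80.1% lay over a peak.

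**Figure D5:**
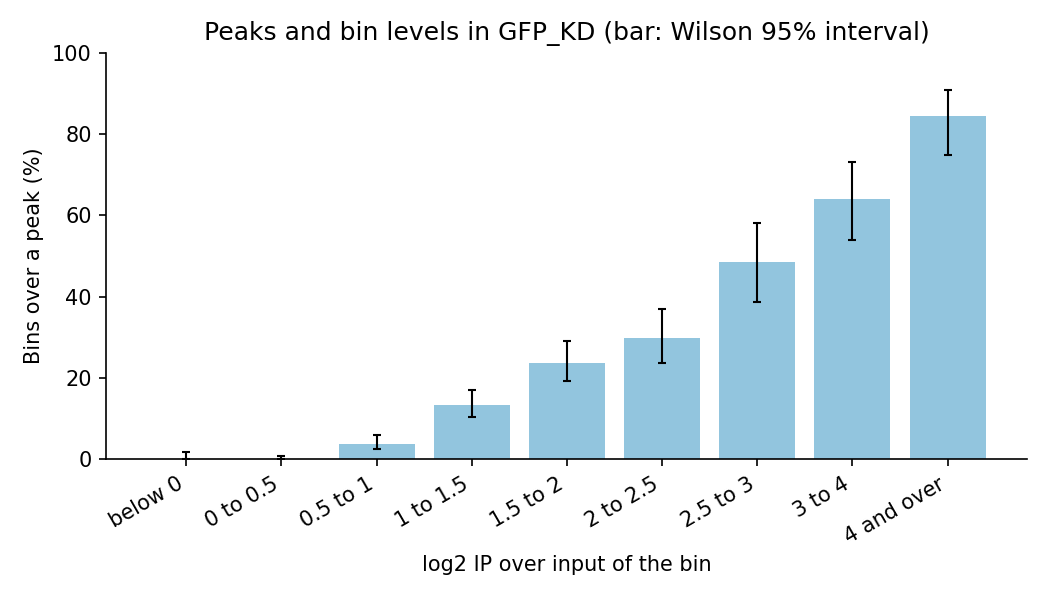
Share of bins over a listed peak (vertical axis, percent, with Wilson 95% intervals) by log2 IP over input of the bin (horizontal axis). The share is 0 below 0.5 and reaches 84.6% at a ratio of 4 and over.

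By class, 27.4% of Enok-bound bins and 9.99% of Enok-unbound bins lay over a peak, and 14.3% of the Enok-bound bins did without 42AB. In the Het sequences the order was the other way, at 8.06% of Enok-bound bins and 9.82% of Enok-unbound bins. Peaks covered 15.9% of the Enok-bound spans, or 6.34% without 42AB, and 5.04% of the Enok-unbound spans. They were found in 21 of 22 Enok-bound clusters and 43 of 66 Enok-unbound clusters. The Enok-bound cluster without a peak was cluster 35 on 2LHet, whose 47 bins had a median of 0.51.

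Over the genome, the peaks were short and only in part inside the tabulated clusters. The median peak was 313 bp long with a fold enrichment of 3.56. Of the 1066 peaks, 410 lay in a cluster span (38.5%) with a median fold enrichment of 3.93, and 656 lay outside with a median of 3.37. A span here runs from the first to the last tabulated bin of a cluster. Only 88 clusters are tabulated, fewer than the paper counts. Peaks outside may therefore lie in other annotated clusters or in untabulated flanks. The 410 covered 329 kb of 3737 kb of cluster span, against 303 kb covered by the 656. 42AB alone held 85 peaks over 136 kb. Of the 24 peaks with a fold enrichment of at least 10, 13 lay in 42AB, 8 in other clusters and 3 outside.

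The longest peaks were all in 42AB. The first was chr2R:2159678-2183459, at 23782 bp and a fold enrichment of 14.0, followed by peaks of 15015, 13129, 12434 and 12358 bp. The highest fold enrichment, 21.96, belonged to chr2R:2204695-2217823, which holds the bins with ratios of 5.82, 5.65 and 5.52 described above. The peak chr2R:2337509-2349866 followed with 19.2. Outside 42AB, the highest were chr3RHet:854108-854990 in cluster 89 (13.7), chr2L:20206254-20208908 in cluster 5 (13.1) and chr3LHet:994267-994799 in cluster 57 (13.01). Within 42AB, peaks covered 79.7% of the tabulated bases and 29.1% of the bases between them.

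Outside the tabulated spans, the strongest peak was chr4:721370-722225, with a fold enrichment of 11.2. The next were chr3L:24441826-24442120 (10.8), chr2L:11315332-11317562 (10.3), chrYHet:317328-317683 (9.94) and chr2L:3008-3331 (9.50), the last in the regular array at the end of 2L. Of the 636 outside peaks on a sequence that has a tabulated cluster, 209 (32.9%) lay within 50 kb of a cluster, whereas 235 (36.9%) lay over 1 Mb away. The mitochondrial sequence had 14 peaks with a low median fold enrichment of 1.62.

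On the 5 large arms, 59.8% of the 661 peaks lay within 3 Mb of the last or first listed position on the centromere side, or 53.8% without 42AB. These stretches make up 12.6% of the listed length of the arms. The share of peaks was 76.9% on 2L (93 of 121 peaks), 76.0% on 2R (130 of 171, or 45 of 86 without 42AB), 50.9% on X (84 of 165), 48.6% on 3L (54 of 111) and 36.6% on 3R (34 of 93). A further 37 peaks were within 50 kb of the arm ends. The 229 peaks in between had median fold enrichments of 3.19 to 3.46 by arm, and 1 of them lay in a tabulated cluster. In the Het sequences, 3LHet had 154 peaks, 3RHet 81 and 2RHet 66, of which 76.0%, 71.6% and 24.2% lay in a cluster.

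A few bins stood far above an otherwise low cluster. Outside 42AB, 17 bins in 14 clusters were at least 2.5 above the median of their cluster, and 4 of these had at least 20 input reads. Beside the bin of cluster 3 above, these were the adjacent bins chr3RHet:920001-921000 and chr3RHet:921001-922000 in cluster 67, with ratios of 4.48 ± 0.30 and 4.73 ± 0.18 against a cluster median of 1.06, and chr2L:22268001-22269000 in cluster 62, at 2.58 ± 0.31. The bin starting at 920001 had 114 RPM in the IP and 5.08 RPM in the input, and listed peaks covered 12.5% of it.

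Bins depleted in the IP were few. The 42 bins below 0 beyond counting error, a limit that deep bins pass more easily, had a median of 128 IP reads and 192 input reads, and 38 of them had more input reads than the median bin. The lowest ratios came mostly from shallower bins. The lowest among those with at least 2 RPM of input were chr3RHet:1440001-1441000 at -1.37 ± 0.60 (8 IP and 20 input reads), chr3LHet:1198001-1199000 at -1.22 ± 0.61, chr2R:871001-872000 at -1.02 ± 0.25 (49 IP and 96 input reads), chr2L:22292001-22292510 at -0.94 ± 0.39 and chr2RHet:1915001-1916000 at -0.93 ± 0.73. The counting interval of the last includes 0. A bin with far more reads, chr3RHet:561001-562000 in cluster 53, had 350 RPM in the IP and 633 RPM in the input, a ratio of -0.85 ± 0.04.

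The ratio fell with the input level of the bin. In the 473 bins (20%) with the least GFP_KD input, up to 2.42 RPM and a median of 9 reads, the median was 1.61, and in the 473 bins with the most, from 20.4 RPM, it was 0.68. The ratio has this input as its divisor. Ranked instead by the enok_KD input, the lowest and highest 20% of bins had 1.45 and 0.71. The share of bins over a peak went the other way, at 2.33% of the bins with the least GFP_KD input and 35.3% of those with the most. The part of depth in these gradients was not tested. By recovered mappability index, the medians showed no such order and lay between 0.92 (index of 0.8 to 0.9) and 1.03 (index of 0.7 to 0.8).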

How the data were processed

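Rhi ChIP-seq was read from 1 IP and 1 input library of GFP_KD ovaries. Per the submitters' processing notes and the study's methods, the authors used Trimmomatic, Bowtie2 2.2.1 and MACS2 on the dm3 genome, kept reads that mapped uniquely without mismatch, and deposited RPM per 1 kb bin after dividing by the mappability of the bin. Repeats that cannot be placed uniquely are therefore not seen. The deposited peak list gives a fold enrichment (a linear ratio) and −log10 p and q values for each peak of the single IP library. The caller's control and settings are not given in the sources used here.

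The log2 of IP over input was taken without a pseudocount. Values in all 4 libraries are whole multiples of 1 read over a shared index. Such reads were recovered for 100% of bins (tolerance 0.001 reads), and for 0% after the libraries were shifted against each other. The index was unique above 0.5 in 67.3% of bins. Elsewhere the largest was used, so reads are upper limits and counting errors lower limits. Medians carry a 95% order-statistic interval and shares a Wilson interval. Bins are not replicates of the ovaries, so no test over bins was run and no p-value is given.

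Named items were 42AB, the 5 highest and 5 lowest clusters with at least 10 bins, the 3 clusters with most bins per class with ties, the 5 highest and 5 lowest bins with at least 2 RPM of input, the 10 peaks of highest fold enrichment, the 5 longest and the 5 highest outside clusters. Arm-end clusters, cluster 8, isolated high bins and bins of high input were named after their values were seen. Members and lists were chosen with earlier results of these data known. The enok_KD peaks were not used, and the enok_KD IP served only to recover the index. Alternatives concerned the pseudocount, the input minimum, the divisor, 42AB, cluster weighting, the arms, the cluster ends and the overlap rule. Python 3 with numpy, pandas, scipy and matplotlib was used, and the read recovery, intervals and overlaps were tested on simulated data.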

Additional observations from a re-analysis of the deposited data

How the results depend on the processing

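No paired analysis was possible because the design has a single library for every group. The 42AB median kept its value within its interval under all alternatives. In all, 54 alternative values were computed, of which 38 moved beyond their interval (counts by over 1.5 times) and 16 did not. Intervals over bins are probably too narrow, so wider intervals could count fewer values as moved. None of the medians or differences changed sign, and shares and counts cannot do so. The cause of each shift was not tested beyond the alternative's own construction. With a pseudocount of 1 RPM, the medians were 0.82 over all bins, 1.00 over Enok-bound bins and 0.75 over Enok-unbound bins, and 40.8%, 49.8% and 36.5% of these reached a log2 of 1. With at least 2 RPM of input, all bins had 0.85 and 43.2%, and Enok-unbound bins 0.73 and 37.1%. With at least 20 recovered reads in both libraries, chosen after seeing the data, the medians were 0.76, 1.06 and 0.65, and the shares 40.0%, 53.4% and 32.8%, again for all, Enok-bound and Enok-unbound bins. With each cluster counted a single time, these medians were 0.81, 1.02 and 0.78, and on the assembled arms 0.92, 2.16 and 0.63. Without 42AB, all bins had 0.91 and 46.0%, and Enok-bound bins 0.97 and 49.5%, of which 14.3% lay over a peak (this last chosen after seeing the data). With the enok_KD input as the divisor, 47.6% of Enok-unbound bins reached 1. Outer bins defined as those within 3 kb of the ends gave an inner minus outer difference of 0.18. Where a peak had to cover 50% of a bin, the share over one was 19.4% in the Enok-bound class and 3.27% in the Enok-unbound class, and with only the 533 peaks whose fold enrichment reached the median it was 24.3% and 6.79%. Of these 533 peaks, 48.6% lay in a cluster, as did 34.7% of the 567 domains made by merging peaks within 1 kb, and 23.9% of all peaks lay over a tabulated bin. No setting gives the variation between ovaries.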
